A study of Homo sapiens with 12 samples.

Results

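The 9 genes described here, MDM1, RAP1B, NUP107, SLC35E3, CPM, CPSF6, YEATS4, FRS2 and CCT2, lie beside MDM2 on chromosome 12q15. They were taken from the deposited count table by Ensembl identifier, and all 9 were found among its 20595 genes. A549 and H1792 are lung adenocarcinoma cell lines. The study treats both as carrying extra copies of MDM2, A549 with wild-type p53 and H1792 with mutant p53. Each line was treated with the solvent DMSO or with 1 µM RG7112 for 48 h, and 3 replicates were sequenced in each of the 4 groups. The labels do not say that replicates were separate cultures, so p-values measure the spread between these samples, which may be technical. No line with a diploid locus is among the samples, so a gain that both lines share cannot be told apart from none.

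MDM2 is the ubiquitin ligase that binds p53 and marks it for degradation. RG7112 is a nutlin-type compound that occupies the pocket of MDM2 in which p53 sits, and MDM2 is itself a target gene of p53, so that freed p53 raises its transcription. When 12q15 is amplified in a tumor, the amplified stretch usually takes in genes beside MDM2, and these are often read as passengers that mark its extent. The neighbours have unrelated functions in the nuclear pore, in chromatin, in mRNA 3′ end formation, in protein folding and in signaling.

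In GENCODE v29 (GRCh38) MDM2 was annotated on the forward strand of chromosome 12, from 68808176 to 68850686. On the centromeric side lay MDM1 (68272443 to 68332381, reverse strand), RAP1B (68610839 to 68671901), NUP107 (68686734 to 68745809) and SLC35E3 (68746106 to 68793964). SLC35E3 was the nearest gene upstream, 14.2 kb from MDM2, and NUP107 was 62.4 kb away. On the telomeric side lay CPM (68842197 to 68971570, reverse strand), CPSF6 (69239537 to 69274358), YEATS4 (69359703 to 69390796), FRS2 (69470349 to 69579789) and CCT2 (69585334 to 69601570), which was 734.6 kb from MDM2. CPM and MDM2 run towards each other and share 8490 bases, of which 133 are exon in both. Whether the counting used strand is not given in the sources used here, so reads from that stretch cannot be assigned to either gene.

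The start regions of MDM2 and of 4 of the 9 neighbours are printed as examples of what the neighbours do and do not share with MDM2. The MDM2 stretch is chr12:68808903-68809000 (forward strand, RefSeq, GRCh38.p14), upstream of the internal start of the gene, and its capitals mark the 2 matches to the p53 response element.
MDM2: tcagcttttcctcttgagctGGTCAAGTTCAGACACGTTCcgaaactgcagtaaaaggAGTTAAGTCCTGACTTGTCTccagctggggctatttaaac
The matches begin at -94 and -56 from that start, with the first base of the gene as 0, and differ from the consensus of 20 bases at 2 and 3 positions. A limit of 3 differing bases was chosen after the sequences were seen, and 5.2% of the 35114 promoters of 300 bases in the RefSeq table hold such a match on either strand.
The regions of 4 neighbours follow, each from 250 bases before to 50 after the RefSeq gene start on the forward strand. For these 4 genes that start lies downstream of the GENCODE start given above. Capitals mark CCAAT or its reverse complement ATTGG in the first 3, and TTTGAA, a word of cell cycle genes known as CHR, in YEATS4.
SLC35E3 (chr12:68745926-68746225): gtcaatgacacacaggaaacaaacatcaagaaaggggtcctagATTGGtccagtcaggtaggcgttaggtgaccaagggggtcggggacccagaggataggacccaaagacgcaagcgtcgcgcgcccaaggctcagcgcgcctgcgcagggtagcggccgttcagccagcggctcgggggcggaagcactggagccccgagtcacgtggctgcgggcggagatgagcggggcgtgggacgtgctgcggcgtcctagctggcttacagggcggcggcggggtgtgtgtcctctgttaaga
NUP107 (chr12:68686728-68687027): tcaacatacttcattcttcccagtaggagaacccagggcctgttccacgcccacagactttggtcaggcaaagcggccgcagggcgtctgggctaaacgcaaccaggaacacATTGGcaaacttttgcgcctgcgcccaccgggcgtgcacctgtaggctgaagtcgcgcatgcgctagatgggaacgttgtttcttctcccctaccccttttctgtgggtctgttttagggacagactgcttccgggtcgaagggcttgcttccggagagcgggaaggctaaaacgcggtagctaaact
CPSF6 (chr12:69239319-69239618): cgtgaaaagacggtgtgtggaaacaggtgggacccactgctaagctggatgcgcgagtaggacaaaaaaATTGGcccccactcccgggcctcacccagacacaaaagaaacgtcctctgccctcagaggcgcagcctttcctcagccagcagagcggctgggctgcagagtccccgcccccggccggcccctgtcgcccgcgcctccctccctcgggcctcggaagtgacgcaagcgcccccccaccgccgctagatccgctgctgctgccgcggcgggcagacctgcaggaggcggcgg
YEATS4 (chr12:69359493-69359792): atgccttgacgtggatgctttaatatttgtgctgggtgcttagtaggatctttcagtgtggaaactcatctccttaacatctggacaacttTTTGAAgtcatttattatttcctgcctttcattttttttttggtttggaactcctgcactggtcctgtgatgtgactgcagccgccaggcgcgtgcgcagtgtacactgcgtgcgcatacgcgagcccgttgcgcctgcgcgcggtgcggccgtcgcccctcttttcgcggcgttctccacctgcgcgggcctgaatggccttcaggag
All 9 neighbours matched the RefSeq table, with 12 start regions in all, and 0 of these held a match to the p53 element. CCAAT was found in start regions of 6 neighbours and in 34.6% of all promoters, and TTTGAA in those of 2 neighbours and in 15.2% of all. The E2F words TTTCCCGC, TTTCGCGC, TTTGCCGC and TTTGGCGC were found on either strand in 0 of the 9 genes and in 3.31% of promoters. The words did not overlap each other in the regions of the neighbours. MDM2 had 4 start regions, all with CCAAT, and the upstream ones held an E2F word, at -232 or -237. A match is a description of the letters and no evidence of binding.

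The libraries held 2011916 to 6218825 counts. Values are given as normalized counts, scaled by TMM to a library of 1000000 counts, and 3 counts corresponded to 0.465 to 1.43 normalized counts. The labels' cell types were checked against markers. Keratins KRT7, KRT8, KRT18 and KRT19 measured at least 30.5 normalized counts in every sample, but the epithelial EPCAM measured 0 to 1.39 in A549 and CDH1 0 to 1.06 in H1792. AKR1B10 and ALDH3A1 were high in A549, where ALDH1A1 measured 0 to 3.44. AKR1C1 and NQO1, of the same list, measured 1790 to 2720 and 3010 to 4930 in A549. They were nearly as high in H1792, at 1020 to 1630 and 2760 to 3480. The lung markers NKX2-1 and SFTPB measured at most 0.436 and NAPSA at most 5.7. PTPRC, CD3E, PECAM1 and VWF measured at most 0.477, whereas the macrophage marker CD68 reached 104 in A549 and the fibroblast collagen COL1A1 measured 189 to 295 in H1792. The other fibroblast genes, COL3A1 and DCN, measured at most 1.86 in both lines. The mesenchymal genes VIM, CDH2 and FN1 measured 9700 to 11500, 219 to 394 and 2100 to 4930 in H1792. In A549 they measured 2700 to 3280, 16.6 to 54.1 and 318 to 1010. The part of these markers in the results was not tested. Replicate 3 of A549 stood apart in both treatments. Its counts differed from the other replicates by 15.4 to 23.3 times the counting variance, against 5.12 to 5.63 between replicates 1 and 2. Of 16 p53 target genes, 8 rose, MDM2 among them, and 0 fell in A549 with RG7112 (adjusted p under 0.05, edgeR). Among all genes tested there, 8.38% passed in either direction. In H1792 2 of the 16 rose and 3 fell, a share near the 34.1% of all genes that passed. MDM2 measured 3.12, 9.56 and 13 normalized counts in A549 with DMSO and 72.8, 58.6 and 76.1 with RG7112. In H1792 it measured 6.34, 12 and 15.3 with DMSO and 8.52, 11.4 and 10.7 with RG7112.

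At baseline, the neighbours did not stand as a block of high expression in either line. Levels were compared per kilobase of annotated exon, as percentiles among the tested genes. CCT2, a subunit of the chaperonin that folds actin and tubulin, had the highest level, with a median percentile of 84.4 in A549 and 86.2 in H1792 with DMSO. CPSF6, a subunit of cleavage factor I that helps to choose the poly-A site, followed at 78.7 and 75.8. YEATS4, the acetyl-lysine reader of the TIP60 and SRCAP chromatin complexes, stood at 67.1 and 60.3. NUP107, a scaffold protein of the nuclear pore, stood at 61.8 and 60.7. The small GTPase RAP1B, which controls integrin adhesion, lay at 33.9 and 39.2. MDM1, a microtubule-binding protein of centrioles, lay at 30.5 and 27.2. MDM2 itself was at 13.4 and 19.2, below CCT2, CPSF6, YEATS4, NUP107, RAP1B and MDM1 in every DMSO sample. The exon lengths used differed widely, 13284 bases for MDM2 against 1714 for YEATS4, and the percentiles depend on them.

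The lowest levels among the neighbours were those of CPM, FRS2 and SLC35E3. CPM encodes carboxypeptidase M, a membrane enzyme that trims basic residues from peptides, and its percentile ranged from 2.87 to 37 over the A549 and from 0 to 42.2 over the H1792 samples with DMSO. FRS2, the adaptor that links FGF receptors to RAS signaling, had median percentiles of 6.05 in A549 and 3.63 in H1792. SLC35E3, a member of the nucleotide sugar transporter family, had 1.05 and 2.64. The order within the upper and the lower group was partly open: the percentiles of CCT2 and CPSF6 overlapped in A549, as did those of RAP1B and MDM1, and those of YEATS4 and NUP107 overlapped in H1792. The order also depended on the length used. Per kilobase of the longest transcript, MDM1 (40.2 to 43.7) stood above RAP1B (30.2 to 33.3) in A549 with DMSO. By that length CCT2 (81.3 to 89.4) and CPSF6 (72.4 to 73.2) did not overlap there.

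**Figure D1:**
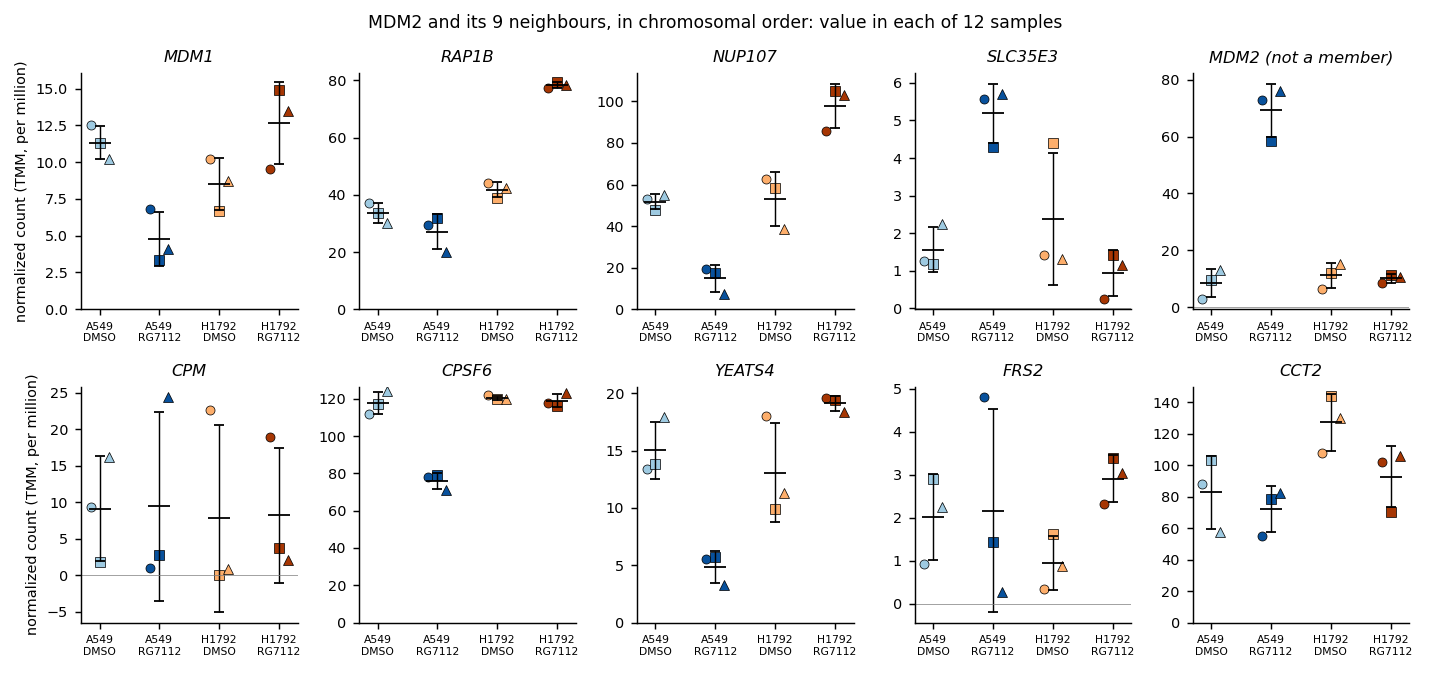
Value of MDM2 and of each of the 9 neighbours in the 12 samples, in normalized counts per library of 1000000 (y axis, a scale of its own in each panel), by cell line and treatment (x axis). Circles, squares and triangles are replicates 1, 2 and 3, and bars are the mean ± SD (n = 3). NUP107 in A549 with RG7112 lies between 7.33 and 19.5, below every other sample, and CPM varies more within groups than between them.

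The first comparison asked whether the neighbours differed between the lines before treatment, as a locus amplified in only one line could show. Of the 7 neighbours with enough counts, 0 passed an adjusted p of 0.05 between A549 and H1792 with DMSO (edgeR quasi-likelihood test), where 49.7% of the 10330 genes tested did. DESeq2 also called 0, and 1, CCT2, had an unadjusted p under 0.05. The median log2 difference of the 7 was 0.01, and that of all genes tested 0.08.

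NUP107 measured 52.8, 47.8 and 54.8 normalized counts in A549 and 62.7, 58.2 and 38.4 in H1792. The A549 values lay within those of H1792. Its log2 difference was 0.01 with a 95% interval from -0.47 to 0.49, which spans 0.72-fold to 1.4-fold.

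CPSF6 was the most evenly measured neighbour, at 112, 117 and 124 normalized counts in A549 and 122, 120 and 120 in H1792. The groups overlapped, and the interval of the log2 difference ran from -0.21 to 0.23, or 0.863-fold to 1.18-fold. For RAP1B the A549 samples measured 37.2, 33.8 and 30.1 and the H1792 samples 44, 39 and 42.3. All A549 samples were lower, but the log2 difference of -0.26 did not pass (adjusted p = 0.234, interval -0.66 to 0.14), whereas with a correction for GC content it was -0.49 and passed (adjusted p = 0.0385).

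YEATS4 measured 13.4, 13.8 and 17.9 normalized counts in A549 and 18, 9.92 and 11.3 in H1792, and MDM1 measured 12.5, 11.3 and 10.2 against 10.2, 6.69 and 8.72. Neither passed, with intervals of -0.47 to 0.97 for YEATS4 and -0.22 to 1.14 for MDM1 on the log2 scale. The intervals reach up to 1.96-fold and 2.2-fold higher levels in A549.
CCT2 measured 87.8, 103 and 57.3 in A549 and 108, 144 and 130 in H1792. Every A549 sample was lower, and the log2 difference was -0.57 (adjusted p = 0.0883). CCT2 and RAP1B were thus the 2 of 7 neighbours whose groups did not overlap, against 61.1% of all genes tested.

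CPM could not be compared with any precision. It measured 9.37, 1.88 and 16.2 normalized counts in A549 and 22.6, 0 and 0.872 in H1792 with DMSO, and the interval of its log2 difference ran from -3.24 to 3.75. A single replicate held most of its counts in H1792. SLC35E3, at 1.25, 1.19 and 2.24 in A549 and 1.41, 4.39 and 1.31 in H1792, and FRS2, at 0.937, 2.9 and 2.24 against 0.352, 1.62 and 0.872, had too few counts for the test, and a difference was not detectable at this depth. MDM2 had a log2 difference of -0.33 (adjusted p = 0.643, interval -1.64 to 0.98).

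Of the 7 other genes tested within 2 Mb of MDM2, 4 passed between the lines with DMSO, a share near the 49.7% of all genes tested. PTPRB (log2 difference -2.26), PTPRR (-3.22), both receptor tyrosine phosphatases, and the kinase DYRK2 (-0.93) were lower in A549, and GRIP1, a synaptic scaffold gene, was higher (3.14). With DMSO, PTPRR measured 0.996 to 2.5 normalized counts in A549 and GRIP1 0 to 1.62 in H1792. These 2 genes passed the filter on low counts only through the line where they were high, so their folds are not firm. CAND1 (0.26), CNOT2 (-0.41) and RAB3IP (-0.34) did not pass. The 7 neighbours had an interquartile range of log2 differences from -0.13 to 0.25, and the 397 genes on the rest of 12q one from -0.30 to 1.28. LYZ, between CPSF6 and YEATS4, and IL22, beside MDM1, had 0 counts in all 12 samples. The 12q13 to q14 genes that are co-amplified with MDM2 in other tumors were described for context: of 12 tested, 1 was higher and 6 lower in A549, among them CDK4 with a log2 difference of -0.75, again near the 49.7% of all genes.

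**Figure D2:**
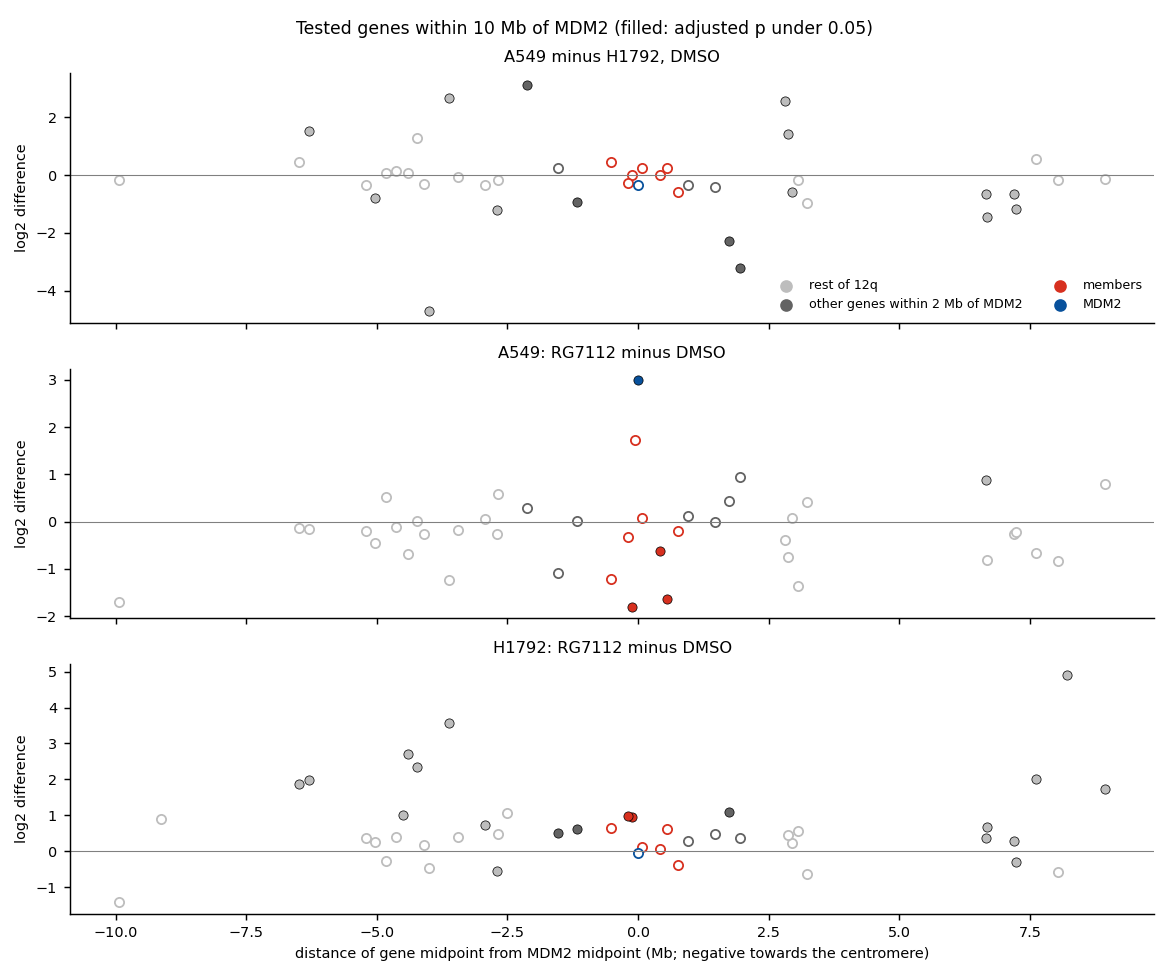
Log2 difference (y axis) of each tested gene within 10 Mb of MDM2 against the distance of its midpoint from that of MDM2 in Mb (x axis), for the lines with DMSO and for the response of each line. Red marks the neighbours, blue MDM2, and filled points have an adjusted p under 0.05. In the upper panel the neighbours lie between -0.57 and 0.46, and in the middle panel MDM2 at 3.00 stands apart from the genes on both sides.

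The second comparison asked whether RG7112 moved the neighbours along with MDM2. In A549 it did not move them together: MDM2 rose 7.97-fold (log2 3.00, SE 0.453, adjusted p = 0.0102), while 3 of the 8 neighbours tested fell and 0 rose. Among all 10739 genes tested 8.38% passed, 4.03% in the lower direction. The median log2 change of the 8 was -0.47, and that of all genes -0.01. Of the 7 other genes tested within 2 Mb of MDM2, 0 passed in A549.

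NUP107 fell most. It measured 52.8, 47.8 and 54.8 normalized counts with DMSO and 19.5, 17.6 and 7.33 with RG7112. The groups were far apart and replicate 3 was the lowest. Its log2 change was -1.80 (SE 0.362, adjusted p = 0.0266), a 3.48-fold fall from 51.8 ± 3.61 to 14.8 ± 6.56 (SD, n = 3). YEATS4 measured 13.4, 13.8 and 17.9 with DMSO and 5.58, 5.72 and 3.26 with RG7112. No treated sample reached an untreated one, and the log2 change was -1.63 (SE 0.338, adjusted p = 0.0295), a 3.1-fold fall. CPSF6 fell less, from 112, 117 and 124 to 78.1, 79.1 and 71.2 normalized counts. Its replicates were close in both groups, and the log2 change was -0.63 (SE 0.136, adjusted p = 0.0348).

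The calls in A549 rested on all 6 samples. Leaving out any one of them left 0 or 1 of the 3, while the log2 changes kept between -2.09 and -1.47 for NUP107, -1.77 and -1.41 for YEATS4, and -0.67 and -0.58 for CPSF6. Over all genes the number of calls also dropped, from 900 to between 321 and 725. Without replicate 3 in both groups NUP107 and CPSF6 passed and YEATS4 did not (adjusted p = 0.0588), and CPSF6 did not with GC correction (log2 -0.36, adjusted p = 0.216) or without a filter on low counts (adjusted p = 0.0552).

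MDM1 and SLC35E3 had groups that did not overlap but did not pass the test. MDM1 measured 12.5, 11.3 and 10.2 normalized counts with DMSO and 6.82, 3.34 and 4.07 with RG7112, without overlap (log2 -1.21, adjusted p = 0.0912). In one fit of all 12 samples MDM1 passed (log2 -1.2, adjusted p = 0.0312). SLC35E3, the gene next upstream of MDM2, measured 1.25, 1.19 and 2.24 with DMSO and 5.58, 4.29 and 5.7 with RG7112. It was the one neighbour whose treated samples all lay above the untreated ones (log2 1.73, SE 0.440, adjusted p = 0.0571), on 4 to 36 counts per sample, and with GC correction it passed (adjusted p = 0.0459). SLC35E3 had enough counts for a test only through these treated samples, so its tests depend on the group in which it was high. In all, 5 of 8 neighbours had groups that did not overlap, against 32.4% of all genes tested.

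RAP1B, CCT2 and CPM overlapped between treatments in A549. RAP1B measured 29.3, 31.9 and 20.1 with RG7112 (log2 -0.32, interval -0.88 to 0.25), and CCT2 measured 55.3, 78.7 and 82.3 (log2 -0.20, interval -0.83 to 0.42). CPM measured 1.08, 2.86 and 24.4 with RG7112, and the interval of its log2 change, -2.65 to 2.79, excludes little. Replicate 3 was the highest CPM sample in both A549 groups, and without both replicates 3 the log2 change was -1.60 in place of 0.07. FRS2, at 4.8, 1.43 and 0.272 with RG7112, was not tested. Although CPM shares its end with MDM2 on the opposite strand, its values did not run with those of MDM2 over the 12 samples (Pearson's r = -0.135, a description).

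**Figure D3:**
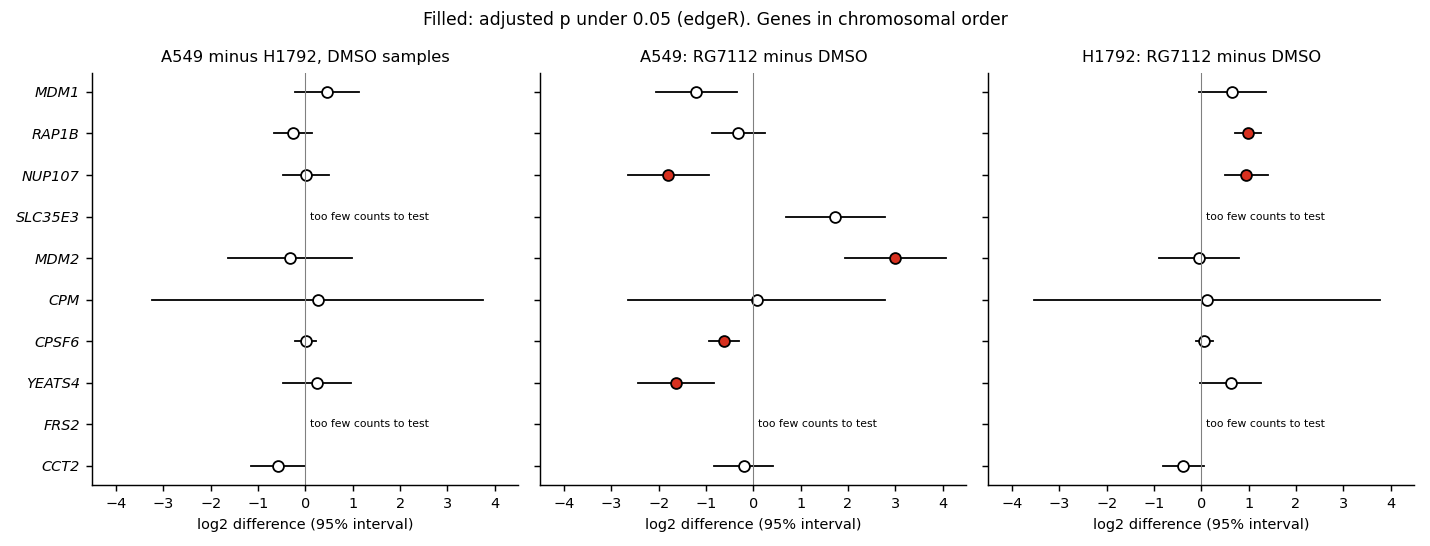
Log2 difference with its 95% interval (x axis) for MDM2 and its neighbours in chromosomal order (y axis), for A549 against H1792 with DMSO and for the response of each line to RG7112. Filled points have an adjusted p under 0.05. In the left panel no neighbour passes, in the middle panel NUP107, CPSF6 and YEATS4 lie below 0 and MDM2 above, and in the right panel RAP1B and NUP107 lie above 0.

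In H1792 the neighbours that passed went the other way. RAP1B and NUP107 rose, 2 of 7 tested, and 0 fell, against 34.1% of all 9914 genes tested, 17.7% of them higher. Of the 6 other genes tested within 2 Mb of MDM2, 3 rose and 0 fell. These were PTPRB (log2 1.10), DYRK2 (0.62) and CAND1 (0.51), so a rise was not particular to the neighbours. MDM2 did not pass (log2 -0.05, interval -0.89 to 0.79). RAP1B measured 44, 39 and 42.3 normalized counts with DMSO and 77.2, 79.5 and 78.2 with RG7112. Its replicates were tight and its groups far apart, with a log2 change of 0.98 (SE 0.113, adjusted p = 0.00316) from 41.8 ± 2.56 to 78.3 ± 1.14 (SD, n = 3). NUP107 measured 62.7, 58.2 and 38.4 with DMSO and 85.8, 105 and 103 with RG7112. Its groups did not overlap either, and the log2 change was 0.95 (SE 0.191, adjusted p = 0.0118), although in one fit of all 12 samples it was 0.88 and did not pass (adjusted p = 0.0501).

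Several of the others shifted less. YEATS4 measured 19.6, 19.4 and 18.4 normalized counts with RG7112, just above the highest DMSO sample at 18 (log2 0.62, adjusted p = 0.119). MDM1 measured 9.56, 14.9 and 13.5 with RG7112 and overlapped its DMSO samples (log2 0.65, adjusted p = 0.133). CCT2 measured 102, 70.3 and 106, all below the DMSO samples (log2 -0.39, adjusted p = 0.143). In total 4 of the 7 neighbours tested did not overlap, against 53.3% of all genes.
CPSF6 measured 118, 116 and 123 and did not pass, with an interval of -0.12 to 0.24 on the log2 scale, although by library size alone its change was 0.32 and passed (adjusted p = 0.0253). CPM measured 18.9, 3.74 and 2.1 and again spread over its whole range (interval -3.54 to 3.78). FRS2 measured 2.32, 3.38 and 3.03 with RG7112, each above its DMSO samples, on 1 to 19 counts. SLC35E3 measured 0.258, 1.42 and 1.16 with RG7112. Neither gene had enough counts for the test in H1792.

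The H1792 changes moved with GC content. The longest transcripts of the neighbours had a GC content of 36.9% to 45.9%, with a median of 40.5% against 48.4% for all genes tested in H1792. Genes in that range had a median log2 change of 0.44 in H1792, and 31% of them rose. In A549 such genes had a median of -0.18, and 5% of them fell. After correction for GC content RAP1B was still higher in H1792 (log2 0.44, adjusted p = 0.0312), NUP107 did not pass (log2 0.51, adjusted p = 0.0669), and CPSF6 was lower (log2 -0.50, adjusted p = 0.00762). The part of GC content in these changes was not tested further.

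**Figure D4:**
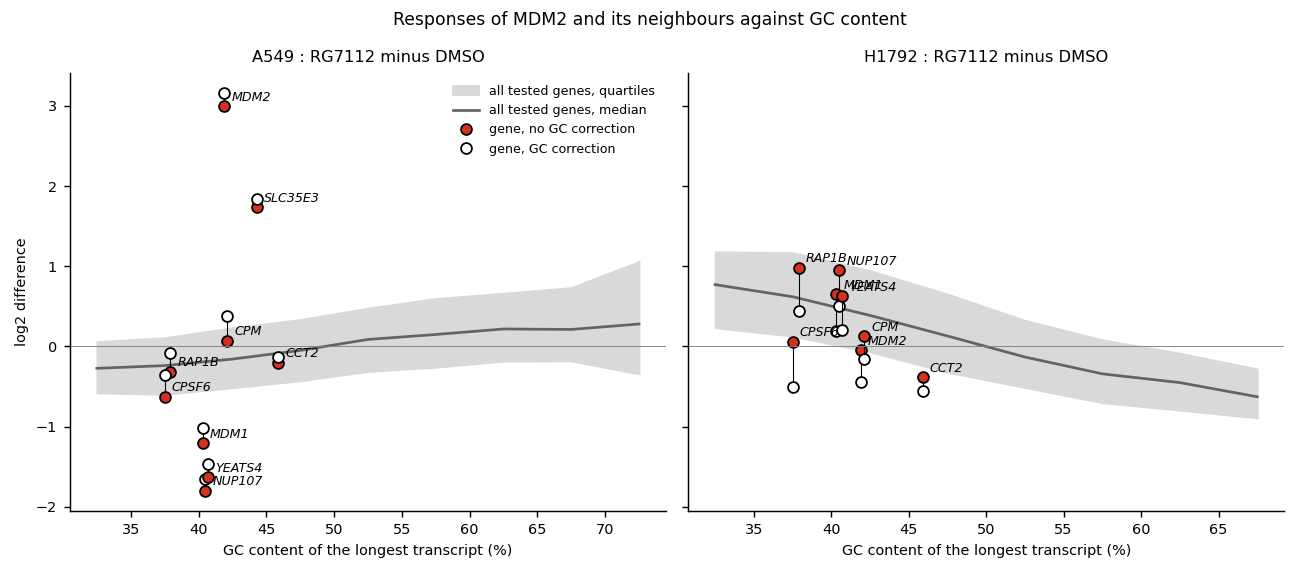
Log2 change with RG7112 (y axis) against the GC content of the longest transcript in percent (x axis), in A549 and in H1792. The line and band are the median and quartiles of all genes tested, red points the genes named, and white points the same genes after GC correction. In H1792 the band falls from left to right and RAP1B moves from 0.98 to 0.44, while in A549 NUP107 moves only from -1.80 to -1.65.

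The third comparison tested the difference between the responses directly, as an interaction over all 12 samples. Of the 9 neighbours 6 passed, against 21.8% of 11666 genes. NUP107 (log2 response in A549 minus that in H1792 -2.67, adjusted p = 0.00236), YEATS4 (-2.19), MDM1 (-1.78), RAP1B (-1.23) and CPSF6 (-0.61) responded lower in A549, and SLC35E3 (3.04, adjusted p = 0.033) higher, as did MDM2 (3.12). CCT2, CPM and FRS2 did not pass. Of the 7 other genes tested within 2 Mb of MDM2, 1 passed, CAND1 (-1.51, adjusted p = 0.032). With GC correction the differences of NUP107 (-2.06), YEATS4 (-1.58) and SLC35E3 (3.44) passed, those of RAP1B and MDM1 did not, and that of CPSF6 turned to 0.24. SLC35E3 passed the filter on low counts only through the A549 samples with RG7112, where it was high, so its call is not independent of that group. The call on SLC35E3 was lost without a filter on low counts (adjusted p = 0.0522) and without both A549 replicates 3 (adjusted p = 0.0516).

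With RG7112, 6 of the 9 neighbours differed between the lines, against 52.6% of the 10915 genes tested, in samples that share no library with the DMSO comparison. NUP107 was lower in A549 by a log2 difference of -2.68, YEATS4 by one of -1.94, RAP1B by one of -1.50, MDM1 by one of -1.33 and CPSF6 by one of -0.61, and SLC35E3 was higher (2.42). Here too SLC35E3 passed the filter on low counts only through the A549 samples. With GC correction 4 of the 9 passed, and CPSF6 (log2 0.0438, adjusted p = 0.831) and MDM1 (adjusted p = 0.0778) did not. MDM1 also did not pass without A549 replicate 2 (adjusted p = 0.0573) or 3 (0.0516) or without H1792 replicate 2 (0.0749) or 3 (0.0589). The treated samples are the same as those in the responses above.

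For 4 neighbours that work in complexes, the partners encoded elsewhere in the genome were examined. Their counts stand beside the 8.38% of all genes called in A549, the 34.1% called in H1792 and the 49.7% called between the lines with DMSO. The Y complex of the nuclear pore holds NUP107 and 9 others in the list. In A549 0 of these 9 passed, with a median log2 change of -0.52, beside -1.80 for NUP107. All 9 log2 changes were negative, from -2.00 to -0.44, so NUP107 lay within their range. In H1792 4 rose and 2 fell, among them NUP160 (1.28) higher and AHCTF1 (-1.98) lower. NUP43 was also higher, with 29, 43 and 50 counts with RG7112 and 0, 0 and 2 with DMSO, too few for a firm fold. At baseline 3 of 8 passed, SEH1L (-1.15) and AHCTF1 (-2.45) lower and NUP133 (1.46) higher in A549. NUP133 had 7 to 12 counts in H1792 with DMSO and passed the filter on low counts only through A549, so its fold is not firm. For CCT2, 2 of the 7 other chaperonin subunits fell in A549, CCT5 (-0.91) and TCP1 (-1.09), and in H1792 1 rose and 4 fell, with CCT3 (-0.94), CCT4 (-1.06) and CCT7 (-0.97) lower. At baseline 5 of these 7 were lower in A549, CCT5 (-1.51), TCP1 (-0.59) and CCT6A (-2.52) among them, with a median of -1.24 beside -0.57 for CCT2.

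CPSF6 pairs with NUDT21 in cleavage factor I. NUDT21 was the 1 of 13 cleavage and polyadenylation genes that fell in A549 (log2 -1.0, adjusted p = 0.0124), beside -0.63 for CPSF6. In H1792 3 of 12 rose and 1 fell, CPSF7 (1.68), CPSF1 (-1.04) and PCF11 (0.82) among them. Of the 16 TIP60 and SRCAP genes tested beside YEATS4, 2 fell in A549, RUVBL2 (-0.86) and ACTL6A (-1.24), and 2 rose and 5 fell in H1792, where ACTL6A (0.96) and SRCAP (2.10) rose and RUVBL2 fell (-0.73). The lists for RAP1B, FRS2, SLC35E3 and CPM gave 1 call among 18 genes tested in A549, RAP1GAP (-2.01), which switches RAP1 off. In H1792 8 of 17 genes passed, 7 of them higher. These were the RAP1 activators RAPGEF1 (0.58), RAPGEF6 (2.67) and RAPGEF2 (1.11), SOS1 (2.15) and PTPN11 (3.44) of FGF receptor signaling, the transporter gene SLC35E1 (0.92) and the carboxypeptidase gene CPD (1.87). RAPGEF6 and PTPN11 had too few counts for a test between the lines with DMSO. They entered the H1792 test through samples with RG7112, where they were higher, so their folds are not firm. RADIL (-3.06), named after its values were seen, was lower. It had too few counts for a test between the lines with RG7112, so its fold is not firm either.

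**Figure D5:**
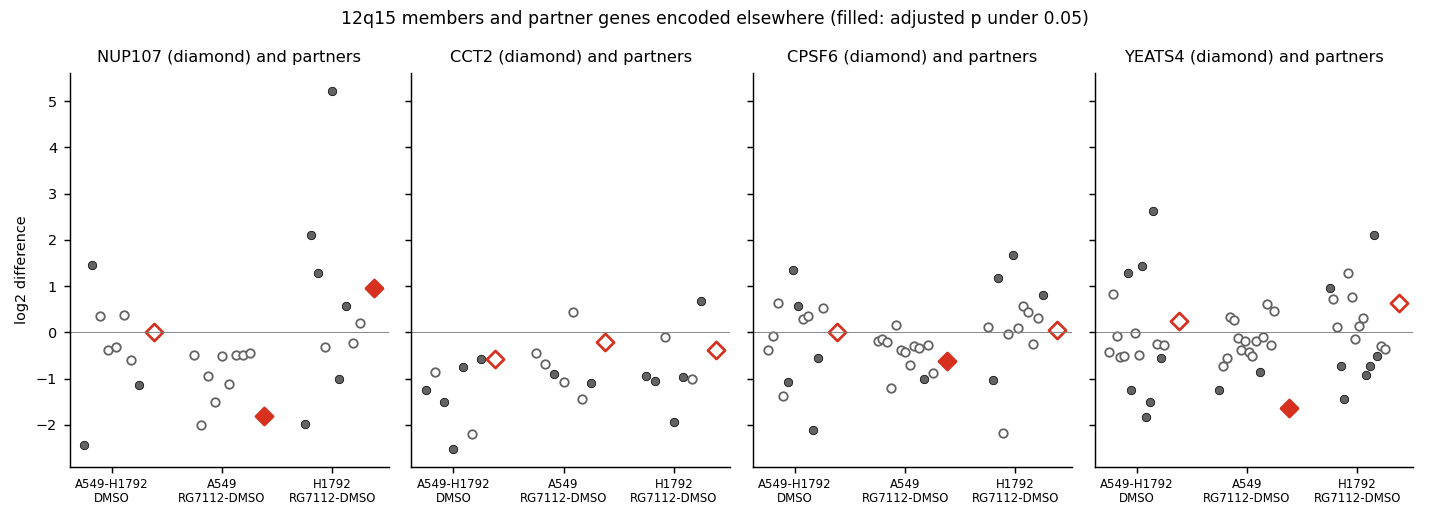
Log2 difference (y axis) of NUP107, CCT2, CPSF6 and YEATS4 (diamonds) and of their partner genes (circles) for the lines with DMSO and for the response of each line (x axis). Filled symbols have an adjusted p under 0.05. In A549 the NUP107 and YEATS4 diamonds lie at -1.80 and -1.63, near or below the lowest of their partners.

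Over the 12 samples, NUP107, YEATS4 and CPSF6 varied together, with Pearson's r of 0.955 for NUP107 and YEATS4, 0.921 for YEATS4 and CPSF6 and 0.904 for NUP107 and CPSF6 on log2 values. MDM2 ran with SLC35E3 (r = 0.794) and against CPSF6 (r = -0.885). The points share 4 groups and are no independent samples of a relation, so these values describe the table. The most similar profile was then sought among genes tested over all 12 samples, with the 9 neighbours left out. The profile most like that of NUP107 was that of GSPT1 on chromosome 16 (r = 0.993), that of CPSF6 was matched by HMGB2 on chromosome 4 (0.993), and YEATS4 by UBA2 on chromosome 19 (0.971). RAP1B was nearest to TAF4B, MDM1 to MRPL58, SLC35E3 to MT-ATP6, FRS2 to RUFY2, CCT2 to REXO2 and CPM to N4BP1, with r between 0.795 and 0.986. None of these 9 genes lies on chromosome 12, but few of the 11666 genes searched do. Besides MDM2 these were 449 on the rest of 12q, 142 on 12p and 7 others within 2 Mb of MDM2. The absence therefore says little about the locus.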

How the data were processed

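Poly-A RNA libraries were sequenced as paired 38 nt reads, per the labels, whereas the paper gives longer reads. The labels give RPMI medium for both lines, and the paper gives DMEM for A549 and RPMI for H1792. If the media differed, their part cannot be told apart from the difference between the lines. The authors pseudoaligned reads with kallisto 0.45.0 to a GRCh38 transcriptome and summed transcripts to genes, and the deposited values are whole-number estimated counts (expected counts) without normalization. Of 20595 identifiers, 18011 matched GENCODE 29, the source of positions, lengths and GC content. Column names give 0.1 µM RG7112, and the 1 µM of the labels was used. The paper states the p53 status of the lines both ways in places, and A549 was taken as wild type.

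Counts were tested in R 4.3.3 with edgeR 4.0.16 (TMM, filterByExpr with a minimum count of 10 and total of 15, robust quasi-likelihood, Benjamini-Hochberg over all genes tested, adjusted p under 0.05), each cell line or treatment fitted on its own and the interaction on 12 samples. Values are TMM-normalized counts per library of 1000000, and errors are SDs (n = 3). Alternatives were DESeq2 1.42.0, other scalings and filters, a loess GC offset, a replicate block, left-out samples and, for levels, the length of the longest transcript. Scripts were tested on simulated data. Intervals and floors cover counting error and sample spread only. The neighbours and gene lists were chosen with earlier results of these data known, and all neighbours, tested genes within 2 Mb, in the comparisons described at most 3 called partners per list, those with the smallest p, and the most correlated gene were named. No pair of replicates agreed within counting noise. Of the partner genes listed, MRGBP was not matched.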

Additional observations from a re-analysis of the deposited data

Results flagged for a closer look

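The responses of 6 neighbours and of MDM2 differed between the lines by the interaction test of edgeR over all 12 samples. The log2 response in A549 minus that in H1792 was -2.67 for NUP107, -2.19 for YEATS4, -1.78 for MDM1, -1.23 for RAP1B, -0.61 for CPSF6, 3.04 for SLC35E3 and 3.12 for MDM2. For NUP107 every A549 sample with RG7112 lay below, and every H1792 sample with RG7112 above, the DMSO samples of its line, and the same held for YEATS4. For RAP1B the A549 groups overlapped, and for CPSF6, MDM1, SLC35E3 and MDM2 the H1792 groups did. SLC35E3 rests on 1 to 36 counts per sample and passed the filter on low counts only through the A549 samples with RG7112. Genes in the neighbours' GC range had a median difference of -0.58, and with GC correction that of CPSF6 turned to 0.24. With that correction the edgeR test also no longer called RAP1B (adjusted p = 0.125) and MDM1 (adjusted p = 0.0859). The part of GC content was not tested.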

How the results depend on the processing

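The labels pair the samples by nothing but the replicate number, and the deviations of same-numbered samples correlated at 0.0692 to 0.299 in A549 and -0.0375 to 0.000402 in H1792. With the replicate block the number of neighbours called was 2 in A549, 2 in H1792, 0 between the lines with DMSO, 5 with RG7112 and 6 for the difference of responses. It ended the calls on YEATS4 in A549 (adjusted p = 0.0646) and on MDM1 with RG7112 (adjusted p = 0.0753). With the block and GC correction 1 was called in A549 (NUP107), where YEATS4 had an adjusted p of 0.0572, and 3 for the difference. In H1792 the 1 called was CPSF6, lower, and RAP1B (adjusted p = 0.0988) and NUP107 (adjusted p = 0.119) did not pass. With GC correction alone 1 was called between the lines with DMSO (RAP1B) and 3 for the difference. In H1792, 0 were called with an absolute log2 over 1 required, and 1 in a fit of all 12 samples. Leaving out 1 sample left 0 to 1 called in A549, 2 to 3 in H1792, 0 between the lines with DMSO, 5 to 6 with RG7112 and 5 to 6 for the difference. Scaling by library size alone moved the median log2 change of all genes to 0.269 in H1792 and -0.372 for the difference, so changes there are relative to TMM. MDM2 in A549 did not pass without DMSO replicate 2 (adjusted p = 0.0534), and leaving out single samples ended the call on the difference of SLC35E3 in 7 of 12 cases and that on MDM1 in 1.

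Several values near 0 changed sign. The response of CPM in A549 was -0.0547 by library size, -0.53 with the block, -0.34 with block and GC correction and -1.60 without both replicates 3, and lay between -2.33 and 0.81 with 1 sample left out. In H1792 it was -0.16 with GC correction and lay between -1.32 and 4.59. MDM2 in H1792 was 0.22 by library size, 0.028 with at least 10 counts in every sample and 0.00857 with the block, and lay between -0.33 and 0.23. CPSF6 in H1792 was -0.50 with GC correction, -0.51 with the block as well and -0.0177 in the fit of all samples.
Between the lines with DMSO, NUP107 was -0.00999 by DESeq2, -0.00672 by RLE size factors, -0.0117 without a filter, -0.17 with GC correction, -0.15 with the block as well, -0.0405 in the fit of all samples and -0.0327 without both A549 replicates 3, and lay between -0.19 and 0.12. CPSF6 was -0.00253, -0.00465, -0.00398, -0.22, -0.22, -0.0354 and -0.0224 in the same order, and lay between -0.0224 and 0.0339. CPM was -0.48 without the A549 replicate 3 and lay between -0.48 and 4.68, and MDM2 lay between -0.72 and 0.0412.
Between the lines with RG7112, CPM was -0.27 with the block and -2.17 without both A549 replicates 3, and lay between -2.17 and 1.71. FRS2 was 0.30 with GC correction and 0.23 without replicates 3, and lay between -1.89 and 0.23. CPSF6 was 0.0438 with GC correction and 0.0315 with the block as well. For the difference of responses, CPM was 0.0716 by DESeq2, 0.0869 by RLE and 0.62 with GC correction, and lay between -4.46 and 1.42. CCT2 was -0.17 by library size and -0.0693 without both A549 replicates 3, and CPSF6 was 0.24 with GC correction and 0.24 with the block as well. The cause was not tested. Leaving out both A549 replicates 3 in the comparisons of lines and of responses was chosen after seeing the data. Depth limits FRS2, SLC35E3 and CPM, with 0 to 90 counts per sample.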
